A study of Mus musculus with 18 samples.

Results

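The 40 genes described here are markers of macrophages and other phagocytes, the cells that engulf microbes, debris and dying cells. They were taken by gene symbol from the table of 55487 genes, by a rule that reads no measured value, and all 40 were found. The list was nevertheless chosen with earlier results of these data known. After the filter on low counts 38 were tested, among 16432 genes. The members too low to be tested were Ccr2 and H2-Aa.

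The RNA came from primary cultures of mouse Leydig cells, which make testosterone in the testis, and the question asked of the members is how the treatments of these cultures moved macrophage transcripts. The testis holds resident macrophages that lie against Leydig cells and exchange signals with them. Macrophages sense microbial products with Toll-like receptors and CD14, bind antibody-coated particles with Fc receptors, take up modified lipoproteins and debris with scavenger receptors, and secrete C1q, the first component of complement. Many of these genes depend on the transcription factor PU.1 (Spi1), and the cells depend on signals through the receptor Csf1r.

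The study held 6 groups of 3 libraries, made by crossing an siRNA with a treatment. The siNC groups carried a control siRNA, and the siprdx1 groups an siRNA against Prdx1, the gene of the peroxide-reducing enzyme peroxiredoxin 1. In each arm the first group had no peroxide (siNC, siprdx1), the next had 200 µM H2O2 for 30 min (siNC+H2O2, siprdx1+H2O2), and the last had the same H2O2 and then 5 µM of the statin fluvastatin for 6 h (siNC+H2O2+FV, siprdx1+H2O2+FV). The 4 groups that had no fluvastatin were instead kept in 0.1% DMSO over the same 6 h. For the fluvastatin groups no DMSO is recorded. All cells were transfected, no group was left without siRNA, and no group had fluvastatin without H2O2. Replicates are labelled biological, but nothing says that they came from separate animals, so the p-values measure the spread between these libraries.

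Library totals ran from 15201530 to 23898435 counts. Prdx1 itself stood at 1279 to 1690 CPM (counts scaled to the library's size by the TMM method) in the 9 siNC-arm libraries and at 426 to 576 CPM in the 9 siprdx1-arm libraries. The label of Leydig cells was checked against steroid enzymes: Cyp11a1, the first enzyme of steroid synthesis, stood at 619 to 802 CPM and Star, which feeds cholesterol to it, at 171 to 530. Cyp17a1, a defining enzyme of androgen synthesis, averaged 0.0318 CPM. Collagen Col1a1, a fibroblast product, stood at 2781 to 4655 CPM. The cultures held macrophage, steroid-cell and fibroblast transcripts together, and the 40 members took 1.15 to 1.43% of the counts of each library. In such bulk RNA fewer cells of a type and less RNA per cell cannot be told apart.

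Start-site sequences of 6 members are shown as examples of genes that moved: Marco, Mpeg1 and Fpr1 were lower in the siprdx1 arm, and Ctss, Fcgr1 and C1qb fell with fluvastatin in the siNC arm. They are not the 6 largest differences, and only members with an entry in the promoter table could be shown, which left out Clec4n. Each is the 250 bases before the RefSeq start on GRCm38.p6, written 5′ to 3′ on the strand of the gene. Capitals mark GAGGAA, the core that PU.1 binds, or its complement.
Marco, chr1:120505025-120505274, minus strand: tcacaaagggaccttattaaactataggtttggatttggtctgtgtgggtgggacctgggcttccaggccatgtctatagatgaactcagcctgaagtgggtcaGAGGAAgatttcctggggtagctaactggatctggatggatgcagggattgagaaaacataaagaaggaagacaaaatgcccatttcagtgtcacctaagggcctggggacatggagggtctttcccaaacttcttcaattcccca
Mpeg1, chr19:12460520-12460769, plus strand: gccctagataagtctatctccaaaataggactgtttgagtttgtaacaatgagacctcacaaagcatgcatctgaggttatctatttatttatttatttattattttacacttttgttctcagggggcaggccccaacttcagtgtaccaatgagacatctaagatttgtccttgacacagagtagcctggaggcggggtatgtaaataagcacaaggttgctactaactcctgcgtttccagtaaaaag
Fpr1, chr17:17883940-17884189, minus strand: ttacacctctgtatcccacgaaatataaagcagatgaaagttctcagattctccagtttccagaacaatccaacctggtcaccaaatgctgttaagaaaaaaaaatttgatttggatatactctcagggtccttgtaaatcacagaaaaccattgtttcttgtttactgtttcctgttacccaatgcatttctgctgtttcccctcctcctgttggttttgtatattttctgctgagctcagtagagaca
Ctss, chr3:95526536-95526785, plus strand: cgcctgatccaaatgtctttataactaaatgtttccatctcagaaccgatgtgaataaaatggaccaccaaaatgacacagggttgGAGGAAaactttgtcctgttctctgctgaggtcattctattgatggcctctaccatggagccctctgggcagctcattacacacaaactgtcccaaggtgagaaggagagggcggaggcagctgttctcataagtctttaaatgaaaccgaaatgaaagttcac
Fcgr1, chr3:96293970-96294219, minus strand: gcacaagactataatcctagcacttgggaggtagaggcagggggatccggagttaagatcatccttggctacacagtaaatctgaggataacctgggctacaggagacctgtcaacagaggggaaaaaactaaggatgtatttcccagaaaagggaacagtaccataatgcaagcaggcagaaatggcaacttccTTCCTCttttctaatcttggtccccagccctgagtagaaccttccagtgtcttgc
C1qb, chr4:136886201-136886450, minus strand: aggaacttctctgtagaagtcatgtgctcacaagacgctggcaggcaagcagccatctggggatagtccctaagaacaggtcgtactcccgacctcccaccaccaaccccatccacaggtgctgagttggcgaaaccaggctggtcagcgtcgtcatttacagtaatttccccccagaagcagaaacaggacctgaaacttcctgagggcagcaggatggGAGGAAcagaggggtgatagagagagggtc
GAGGAA was searched on both strands from 250 bases before to 50 after each start. It was found in 16 of the 28 members with an entry (57.1%) and in 31.3% of the 27025 genes of the table. The longer form GAGGAAGT was in 2 of the 28 (7.1%, against 3.7% of all genes), and it overlaps the shorter one. The NF-kappaB form, GGGA and CC with any 4 bases between them, was in 11 (39.3% against 22.9%), the antioxidant form TGACNNNGC in 3 (10.7% against 14.0%) and the AP-1 form TGANTCA in 2 (7.1% against 9.0%). In the stretches shown, GAGGAA stood in Marco, Ctss, Fcgr1 and C1qb at -146, -164, -55 and -30 bases from the start, as the complement in Fcgr1, and in neither Mpeg1 nor Fpr1. Such matches describe letters and say nothing of binding.

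Levels of different members were compared per kb of exon, the scale on which genes can be set side by side. Lyz2, the lysozyme that cuts bacterial walls, led with a mean of 4314 CPM per kb over the 18 libraries. It was followed by the lysosomal protease Ctss (468 CPM per kb), the lysosomal glycoprotein Cd68 (348), the fatty acid and scavenger receptor Cd36 (311) and the complement chain C1qa (309). The scavenger receptor Marco stood at 231.5 CPM per kb, the signalling adaptor Tyrobp at 222.5, C1qb at 206, the pore-forming Mpeg1 at 169 and C1qc at 163. Growth factor receptor Csf1r had 41.1 CPM per kb, the endotoxin co-receptor Cd14 35.1, Tlr2 14.97 and Tlr4 7.00.

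At the low end were the genes of antigen presentation on MHC class II. Cd74, the invariant chain that guides class II molecules, averaged 0.563 CPM per kb, H2-Ab1 0.358, H2-Eb1 0.229 and H2-Aa 0.0621. Their libraries held 12 to 29 counts of Cd74, 10 to 40 of H2-Ab1, 2 to 17 of H2-Eb1 and 0 to 10 of H2-Aa. Ciita, the master activator of class II genes, averaged 0.0698 CPM. The lowest member per kb was Ccr2 (0.0318 CPM per kb), the chemokine receptor of blood monocytes, with 1 to 9 counts a library. Trem1, an amplifier of inflammatory signals, was also rare at 0.339 CPM per kb and 4 to 49 counts.

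**Figure D1:**
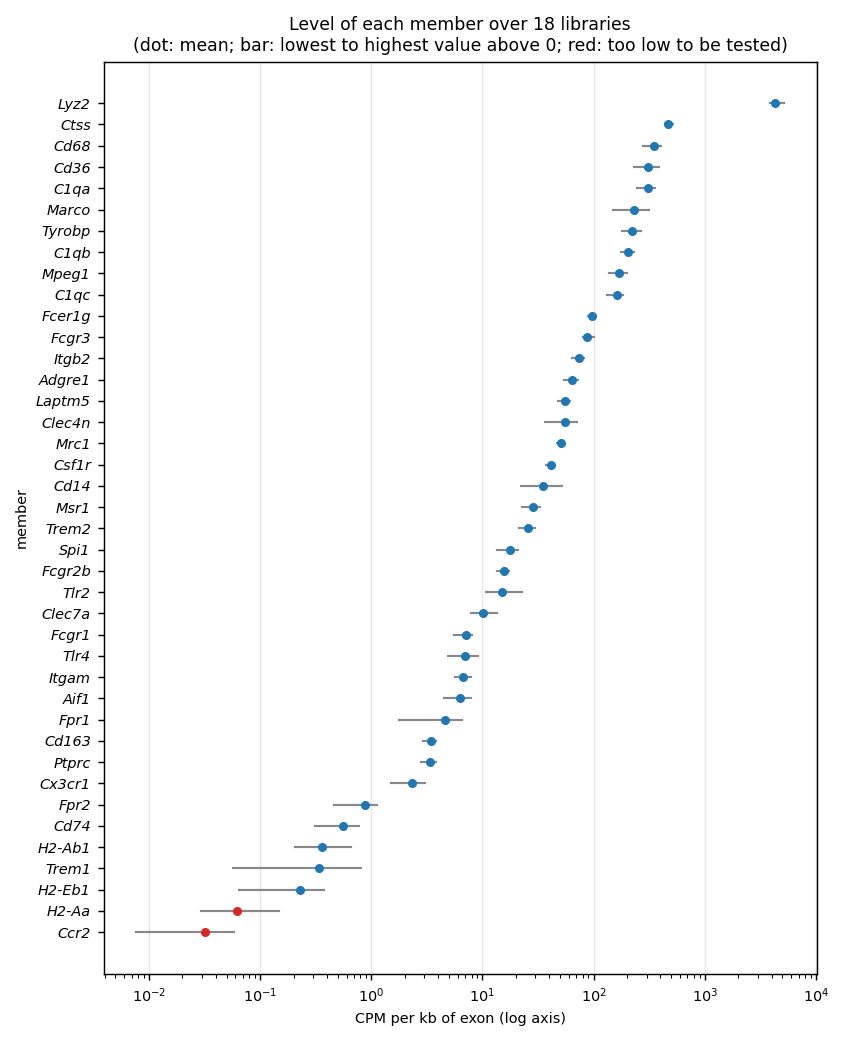
Mean level of each of the 40 members in CPM per kb of exon over 18 libraries, on a log axis, with a bar from the lowest to the highest library above 0. Lyz2 leads at 4314 and the class II genes and Ccr2 lie below 1.

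Lists of other cell types were read beside the members. A list of 59 other macrophage and myeloid genes was tested whole, and their summed level ran from 5160 to 5800 CPM. T cell genes (10 listed, 3 tested) summed to 13.8 to 18.9 CPM, with a mean of 0.0212 CPM for the defining Cd3e. Natural killer and mast cell genes (10 listed, 1 tested) summed to 110 to 139 CPM, of which Kit, a receptor found on other cells too, averaged 121.8, Ncr1 0.0144 and Cpa3 0.0487. The neutrophil genes S100a9 and Retnlg and the dendritic cell genes Flt3 and Cd209a had no read in any library. Resident macrophage genes were present: Stab1, a clearance receptor, averaged 697 CPM, Pf4 130.4 and the folate receptor Folr2 94.3. Timd4, a receptor for dying cells on some resident macrophages, averaged 0.429 CPM.

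The summed level of all members, which was not tested, had these means by group. It was 12425 ± 501 CPM (SD, n = 3) in siNC, 13789 ± 403 in siNC+H2O2 and 12414 ± 228 in siNC+H2O2+FV. In the other arm it was 11314 ± 261 in siprdx1, 11809 ± 308 in siprdx1+H2O2 and 12434 ± 271 in siprdx1+H2O2+FV. The siNC+H2O2 libraries were the highest and the siprdx1 libraries the lowest on average, and the 2 fluvastatin groups differed by less than their SD. Without Lyz2, which makes up a large share of the sum, the means were 6796, 7285, 6929, 6096, 6293 and 6724 CPM in the same order.

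The 4 defining markers were read first. Lyz2 stood at 6113, 5313 and 5460 CPM in siNC, 6870, 6280 and 6364 in siNC+H2O2 and 5653, 5388 and 5416 in siNC+H2O2+FV. It stood at 5383, 5053 and 5218 in siprdx1, 5680, 5342 and 5524 in siprdx1+H2O2 and 5898, 5596 and 5634 in siprdx1+H2O2+FV. All 3 siNC+H2O2 libraries lay above the 15 others, of which siNC replicate 1 was the highest. Lyz2 shares 95.8% of 1264 aligned bases with Lyz1, whose mean was 11.7 CPM, so a few of its reads may be assigned to either gene.

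Cd68 stood at 455, 351 and 418 CPM in siNC, 473, 434 and 473 in siNC+H2O2, 404, 397 and 443 in siNC+H2O2+FV, 420, 466 and 404 in siprdx1, 417, 468 and 421 in siprdx1+H2O2 and 505, 488 and 442 in siprdx1+H2O2+FV. Its groups overlapped in all 7 pairwise comparisons and it passed in none. Adgre1, the adhesion receptor known as F4/80, stood at 211, 199.9 and 206 in siNC, 232, 234 and 223 in siNC+H2O2, 230.3, 212 and 207 in siNC+H2O2+FV, 197, 176 and 185 in siprdx1, 220.3, 196 and 192 in siprdx1+H2O2 and 209, 198 and 207 in siprdx1+H2O2+FV. It was lower in siprdx1 than in siNC without overlap, and lower after H2O2 too, but passed only in the knockdown average (log2 fold change -0.13 ± 0.03 SE, adjusted p = 0.0116). Csf1r, the receptor for macrophage growth factors, stood at 233, 229.5 and 229 in siNC, 257, 251 and 256 in siNC+H2O2, 227, 247 and 244 in siNC+H2O2+FV, 218, 229 and 221 in siprdx1, 216, 236 and 227 in siprdx1+H2O2 and 251, 255 and 239 in siprdx1+H2O2+FV. Its siNC+H2O2 libraries were above siNC and above siprdx1+H2O2 without overlap, and neither difference passed (adjusted p = 0.0756 and 0.0609). Csf1r shares 15.1% of its exon bases with Hmgxb3 on the opposite strand, and whether counting used the strand is not given in the sources used here.

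**Figure D2:**
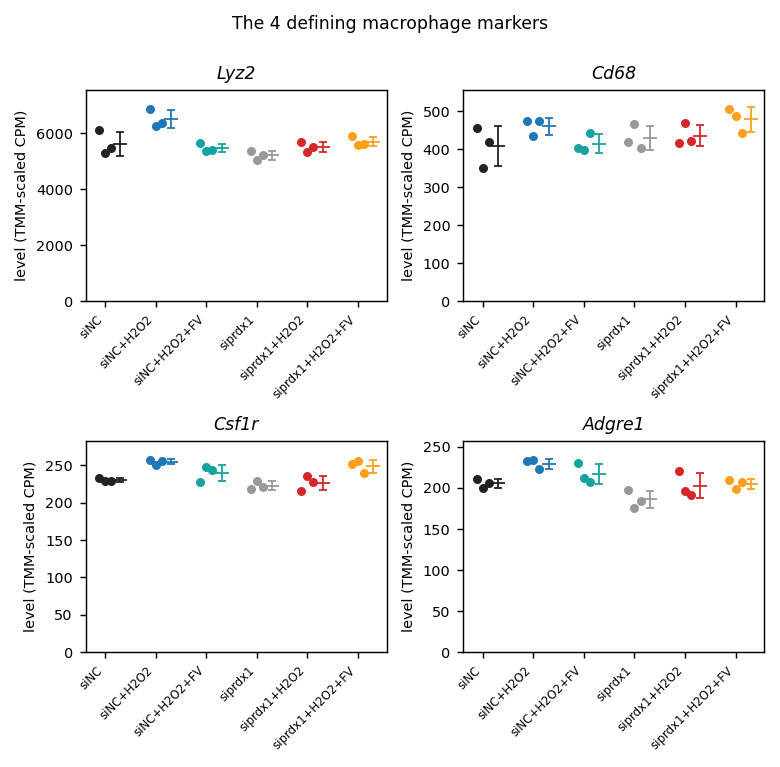
Level in TMM-scaled CPM of Lyz2, Cd68, Csf1r and Adgre1 in each library (dots) of the 6 groups, with the group mean and SD beside them. The siNC+H2O2 libraries of Lyz2 sit between 6280 and 6870, above all others.

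Knockdown of Prdx1 lowered the transcripts of 4 surface receptors and 1 pore-forming protein, while none of the 4 defining markers passed without H2O2. Without H2O2, 5 of 38 members fell and 0 rose, where 1.67% of all tested genes fell and 0.657% rose (edgeR, adjusted p below 0.05). For the rise count of 0, 3 members were higher at an unadjusted p below 0.05, and DESeq2 called 1, Cd14, with no share of all tested genes given for either count. The median log2 fold change was -0.07 over members and 0.00 over all tested genes. Every siprdx1 library lay above every siNC library in 4 members (7.09% of tested genes) and below in 11 (8.19%). The 5 were Marco, Clec4n, Mpeg1, Cx3cr1 and Fpr1.

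Marco, the scavenger receptor with collagenous structure that binds bacteria and particles, is encoded on chr1:120474538-120505024 (mm10, minus strand). It stood at 553, 612 and 524 CPM in siNC and 286, 309.9 and 295 in siprdx1. Marco was at 547, 608 and 551 CPM in siNC+H2O2 and 307, 339 and 332 in siprdx1+H2O2, and at 514, 554 and 529 and 405, 383 and 371 in the 2 fluvastatin groups. Every siprdx1-arm library was below every siNC-arm library, and the 2 arms were closest in the fluvastatin groups. The siprdx1 mean was 52.7% of the siNC mean without H2O2 (log2 fold change -0.92 ± 0.06 SE, adjusted p = 3.03e-09), 57.4% after H2O2 (log2 fold change -0.80 ± 0.06 SE, adjusted p = 1.13e-08) and 72.6% after fluvastatin (log2 fold change -0.46 ± 0.06 SE, adjusted p = 3.91e-05). Relative to the geometric mean of the 4 defining markers, Marco was 0.909 to 1.13 in siNC and 0.512 to 0.558 in siprdx1.

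Clec4n (chr6:123229843-123247021, plus strand), the lectin receptor dectin-2 that binds fungal mannans, stood at 89.1, 89.3 and 81.4 CPM in siNC against 57.7, 51.9 and 54.03 in siprdx1. After H2O2 it held 99.7, 99.9 and 96.7 against 67.03, 59.8 and 62.9, and after fluvastatin 97.7, 98.3 and 92.1 against 70.95, 68.3 and 77.04. Here too the arms did not overlap in any treatment. The log2 fold changes were -0.67 ± 0.06 (SE), -0.64 ± 0.06 and -0.41 ± 0.06 in that order, with adjusted p of 4.97e-07, 5.33e-07 and 0.000159. Its relative level to the 4 markers was 0.142 to 0.165 in siNC and 0.0935 to 0.103 in siprdx1.

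Mpeg1 (chr19:12460779-12465283, plus strand), perforin-2, which makes pores in engulfed bacteria, stood at 827, 812 and 804 CPM in siNC and 683, 599 and 644 in siprdx1. It held 858, 833 and 814 in siNC+H2O2 and 693, 612 and 637 in siprdx1+H2O2, and 872, 817 and 779 in siNC+H2O2+FV and 639, 622 and 641 in siprdx1+H2O2+FV. The arms did not overlap in any of the 3 treatments. The siprdx1 mean was at 78.8%, 77.5% and 77.1% of the siNC mean (log2 fold changes -0.34, -0.37 and -0.38, each ± 0.06 SE, adjusted p = 0.00072, 0.000332 and 0.000159). Marco, Clec4n and Mpeg1 passed in all 3 treatments under each alternative run, which included leaving out each library.

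Cx3cr1 (chr9:119901616-120069879, minus strand), the receptor of fractalkine, was a rare transcript. It stood at 13.7, 12.9 and 13.5 CPM in siNC and 10.9, 9.86 and 9.57 in siprdx1, at 13.2, 11.4 and 13.4 and 8.73, 8.72 and 10.02 after H2O2, and at 12.1, 10.5 and 9.87 and 7.03, 6.79 and 6.85 after fluvastatin. The arms did not overlap in any treatment and the difference passed without H2O2 (log2 fold change -0.41 ± 0.10 SE, adjusted p = 0.0268), after H2O2 (log2 fold change -0.47 ± 0.10 SE, adjusted p = 0.00994) and after fluvastatin (log2 fold change -0.65 ± 0.11 SE, adjusted p = 0.000518). The call without H2O2 was lost without siNC replicate 1 (adjusted p = 0.0933) or 3 (0.107) and without siprdx1 replicate 2 (0.0958) or 3 (0.143). That call was also lost with no low-count filter (0.053) and with only the groups compared (0.0819). After H2O2 it was lost without siNC+H2O2 replicate 1 (0.0573) or 3 (0.0728) and with only the groups compared (0.0756).

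Fpr1 (chr17:17876471-17883940, minus strand), a receptor for formylated bacterial peptides, stood at 7.76, 7.12 and 6.49 CPM in siNC and 3.98, 4.15 and 2.38 in siprdx1, where it was at 49.2% of the siNC mean (log2 fold change -0.995 ± 0.17 SE, adjusted p = 0.000844). After H2O2 it held 8.71, 8.19 and 7.59 against 5.14, 5.19 and 6.11 (log2 fold change -0.57 ± 0.15 SE, adjusted p = 0.0468), and after fluvastatin 8.13, 5.96 and 7.76 against 4.82, 5.14 and 5.85. In each treatment every siprdx1-arm library lay below every siNC-arm library, though the difference after fluvastatin did not pass (log2 fold change -0.47 ± 0.16 SE, adjusted p = 0.106). The call after H2O2 was lost without each of the 6 libraries in turn, with adjusted p from 0.0661 to 0.177. It was also lost with the replicate block (0.0535), library size alone (0.0548) and only the groups compared (0.0603).

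**Figure D3:**
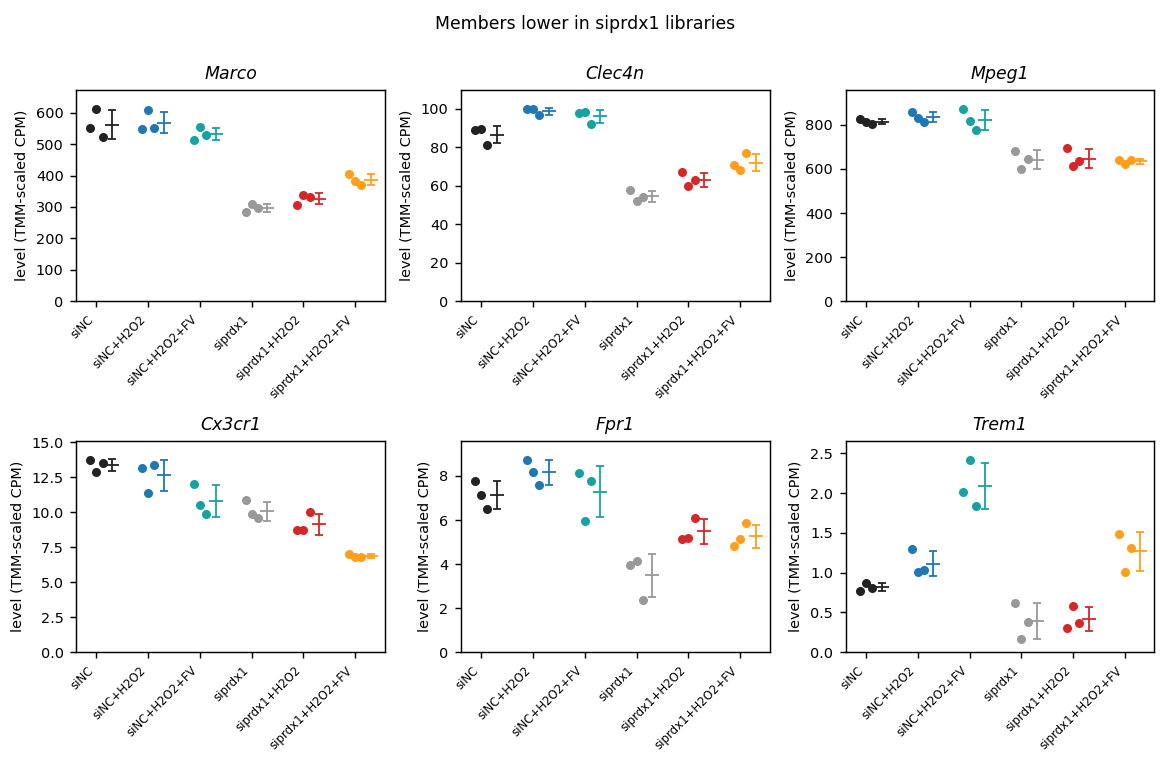
Level in TMM-scaled CPM of Marco, Clec4n, Mpeg1, Cx3cr1, Fpr1 and Trem1 in each library (dots), with the group mean and SD beside them. Marco lies between 514 and 612 in the 9 siNC-arm libraries and between 286 and 405 in the 9 siprdx1-arm libraries.

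After H2O2 the knockdown lowered 9 members and raised 0, where 1.83% of tested genes fell and 0.901% rose. No member was higher at an unadjusted p below 0.05, and DESeq2 called none higher. On the log2 scale the median was -0.18 for members and 0.00 for all tested genes, and 32 of 38 members had a negative fold change. In 21 members every siprdx1+H2O2 library lay below every siNC+H2O2 library, which held for 9.13% of tested genes, and in 0 members above (8.03%).

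Beside the 5 above, the members that fell were Lyz2, Fcgr3, Itgb2 and Trem1. Lyz2 went to 84.8% of the siNC+H2O2 mean (log2 fold change -0.24 ± 0.05 SE, adjusted p = 0.0142). Fcgr3, a low-affinity receptor for IgG, stood at 176, 162 and 169 CPM in siNC+H2O2 and 139.7, 143 and 150.1 in siprdx1+H2O2 (log2 fold change -0.23 ± 0.05 SE, adjusted p = 0.0153). Itgb2, the shared beta chain of the leukocyte integrins, stood at 251, 253 and 248 against 204, 225 and 222 (log2 fold change -0.21 ± 0.05 SE, adjusted p = 0.0259). Neither gene overlapped between the groups, and the siprdx1+H2O2 means were 85.5% and 86.5% of the siNC+H2O2 means. In the other groups Itgb2 stood at 241, 227 and 228 CPM in siNC, 203, 212 and 197 in siprdx1, 219, 236 and 234 in siNC+H2O2+FV and 236, 236 and 224 in siprdx1+H2O2+FV, where the arms did not overlap without H2O2 and did after fluvastatin. Fcgr3 stood at 165, 149 and 153 in siNC, 150.2, 144 and 148 in siprdx1 and 155, 146 and 150.4 in siprdx1+H2O2+FV, with overlap between siNC and siprdx1. Fcgr3 shares 96.3% of 512 aligned bases with Fcgr2b, so their counts are partly uncertain. Trem1 stood at 1.29, 1.00 and 1.04 CPM in siNC+H2O2 and 0.299, 0.582 and 0.367 in siprdx1+H2O2 (log2 fold change -1.38 ± 0.35 SE, adjusted p = 0.0324).

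This set was sensitive to single libraries. Without siNC+H2O2 replicate 1 the count of falls was 3, without siNC+H2O2 replicate 3 it was 4 and without siprdx1+H2O2 replicate 3 it was 5. The Lyz2 call was lost without siNC+H2O2 replicate 1 (adjusted p = 0.12) and without siprdx1+H2O2 replicate 2 (0.0509) or 3 (0.0619). The Fcgr3 call was lost without siNC+H2O2 replicate 1 (0.116) or 3 (0.0637) or siprdx1+H2O2 replicate 1 (0.0594). The Itgb2 and Trem1 calls were each lost in 5 of the 6 omissions, all but that of siprdx1+H2O2 replicate 2, with adjusted p up to 0.123 and 0.138. Itgb2 also lost its call with no low-count filter (0.0522). With an offset for GC content, added after the data were seen, 18 members fell, with no share of all tested genes given beside it. With only the 2 groups in the fit 3 fell, which left Lyz2 at an adjusted p of 0.0656, Fcgr3 at 0.108, Itgb2 at 0.129 and Trem1 at 0.104.

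After H2O2 and fluvastatin, 4 members were lower in siprdx1 (2.35% of tested genes were) and 0 higher (1.62%). The 4 were Marco, Clec4n, Mpeg1 and Cx3cr1. At an unadjusted p below 0.05, 9 members were higher, and DESeq2 called 3 members higher, among them Cd14 and Tlr2. Members had a median of -0.01 and all tested genes one of 0.01 on the log2 scale. The groups did not overlap in 9 members that were higher (10.8% of tested genes) and 8 that were lower (11.5%). With the GC offset 6 were called higher, and without siNC+H2O2+FV replicate 3 the count was 1. Fold changes of this comparison correlated with transcript GC content at 0.29. The unadjusted, DESeq2 and GC-offset counts have no share of all tested genes beside them.

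Averaged over the 3 treatments, 11 members were lower (5.46% of tested genes) and 1 higher (3.93%). Lower were the 5 genes already described and Trem1, Adgre1, Fcgr3, Itgam, Itgb2 and Clec7a. Trem1 had the largest average difference, on few counts (log2 fold change -1.07 ± 0.20 SE, adjusted p = 0.000722). Its libraries held 0.776, 0.874 and 0.801 CPM in siNC and 0.620, 0.169 and 0.375 in siprdx1, and no siprdx1 library reached the lowest siNC library in any treatment. Itgb2 was lower by less (log2 fold change -0.13 ± 0.03 SE, adjusted p = 0.00713). Itgam, the alpha chain that pairs with Itgb2 in complement receptor 3, was also lower (log2 fold change -0.18 ± 0.05 SE, adjusted p = 0.0232), as was Clec7a, the beta-glucan receptor dectin-1 (log2 fold change -0.21 ± 0.05 SE, adjusted p = 0.0117). Over the 18 libraries Itgam ran from 28.4 to 39.8 CPM and Clec7a from 20.98 to 35.9. Itgam shares 68.7% of its exon bases with Gm49368 on the same strand, so its counts are uncertain.

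Some average calls rested on single libraries. Itgam lost its call without siNC+H2O2 replicate 3, siNC+H2O2+FV replicate 1, siprdx1+H2O2 replicate 3 or siprdx1+H2O2+FV replicate 1, with adjusted p from 0.0561 to 0.0627. Fcgr3 (log2 fold change -0.10 ± 0.03 SE, adjusted p = 0.0291) lost it in 8 of 18 omissions, namely siNC replicate 1, siNC+H2O2 replicates 1 and 3, siNC+H2O2+FV replicate 2, siprdx1 replicates 2 and 3 and siprdx1+H2O2+FV replicates 2 and 3, with adjusted p up to 0.0751, and also with library size alone (0.0782) and no low-count filter (0.103). The gene that was higher, Tlr2 (log2 fold change 0.14 ± 0.04 SE, adjusted p = 0.031), lost it in 7 of 18, namely siNC, siNC+H2O2 and siNC+H2O2+FV replicate 3, siprdx1 and siprdx1+H2O2 replicate 1 and siprdx1+H2O2+FV replicates 1 and 3, with adjusted p up to 0.0808.

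Few members passed with H2O2. In the siNC arm 2 rose, Cd14 and Lyz2, and 0 fell, where 2.36% of tested genes rose and 4.59% fell. At an unadjusted p below 0.05, 16 members were higher and 0 lower, and DESeq2 called 5 higher and none lower. Shares of all tested genes are not given for these unadjusted and DESeq2 counts, so they cannot be set against a background. On the log2 scale members had a median of 0.14 against 0.01 for all genes, and 32 of 38 members had a positive fold change. All 3 siNC+H2O2 libraries lay above all siNC libraries in 13 of the 38 members, against 12.5% of tested genes, and below them in 0 (14.4%).

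Cd14, the co-receptor that hands bacterial endotoxin to Tlr4, stood at 43.6, 38.4 and 42.8 CPM in siNC and 58.5, 57.5 and 55.2 in siNC+H2O2, a rise to 137% of the siNC mean (log2 fold change 0.46 ± 0.06 SE, adjusted p = 3.11e-05). Lyz2 rose to 116% (log2 fold change 0.21 ± 0.05 SE, adjusted p = 0.0184). Neither gene overlapped between the groups. The Lyz2 call was lost without siNC replicate 2 (adjusted p = 0.113) or 3 (0.096) or siNC+H2O2 replicate 1 (0.131). The count of rises was 1 without siNC replicate 3 or siNC+H2O2 replicate 1. With the replicate number as a block, though the labels give no pairing, 5 members rose, which added Adgre1, Ctss and Tlr2. With the GC offset 12 did. No share of all tested genes is given for either setting.

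In the siprdx1 arm H2O2 raised 2 members and lowered 1, where 2.48% of tested genes rose and 5.39% fell. Medians were 0.03 for members and 0.02 for all genes. Without overlap, 4 members were higher (10.5% of tested genes) and 1 lower (12.1%). Clec4n rose from 57.7, 51.9 and 54.03 CPM to 67.03, 59.8 and 62.9 (log2 fold change 0.21 ± 0.06 SE, adjusted p = 0.0376), and Fpr1 from 3.98, 4.15 and 2.38 to 5.14, 5.19 and 6.11 (log2 fold change 0.62 ± 0.17 SE, adjusted p = 0.0232). Both genes are among those that were lower in the siprdx1 arm. The siprdx1 libraries enter both this comparison and that of knockdown without H2O2, so low values there add to the rise and to the fall alike. Fcgr2b, the inhibitory receptor for IgG, fell from 98.99, 96.95 and 100.1 to 91.6, 77.9 and 84.2 (log2 fold change -0.22 ± 0.06 SE, adjusted p = 0.0127). Groups did not overlap in any of the 3.

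None of these 3 calls held throughout. The Clec4n call was lost without siprdx1 replicate 2 (adjusted p = 0.153) or 3 (0.109) or siprdx1+H2O2 replicate 1 (0.137) or 3 (0.0943). Fpr1 lost it without siprdx1 replicate 3 (0.131) or siprdx1+H2O2 replicate 3 (0.12). Fcgr2b lost it without siprdx1 replicate 3 (0.0534) or siprdx1+H2O2 replicate 2 (0.0794) or 3 (0.0512). The count of rises was then 0 without replicate 3 of either group and 1 without siprdx1 replicate 2 or siprdx1+H2O2 replicate 1. With only the 2 groups in the fit no member passed (adjusted p = 0.187 for Clec4n, 0.118 for Fpr1 and 0.107 for Fcgr2b). Clec4n also lost its call with library size alone (0.1) and with no low-count filter (0.0552).

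The test of whether H2O2 acted differently in the 2 arms gave 0 members in either direction, where 0.0426% of tested genes were higher and 0.201% lower. At an unadjusted p below 0.05, 1 member was higher and 4 were lower, and DESeq2 called 1, Cd14, again without shares of all tested genes. The difference for Cd14 had the smallest edgeR p (log2 difference -0.35 ± 0.09 SE, adjusted p = 0.137). Its level rose with H2O2 in siNC, as given above, and in the siprdx1 arm it was 47.5, 47.4 and 50.7 before and 49.5, 52.1 and 55.2 after, where the groups overlapped. Over members the median difference was -0.09 and over all genes 0.01.

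**Figure D4:**
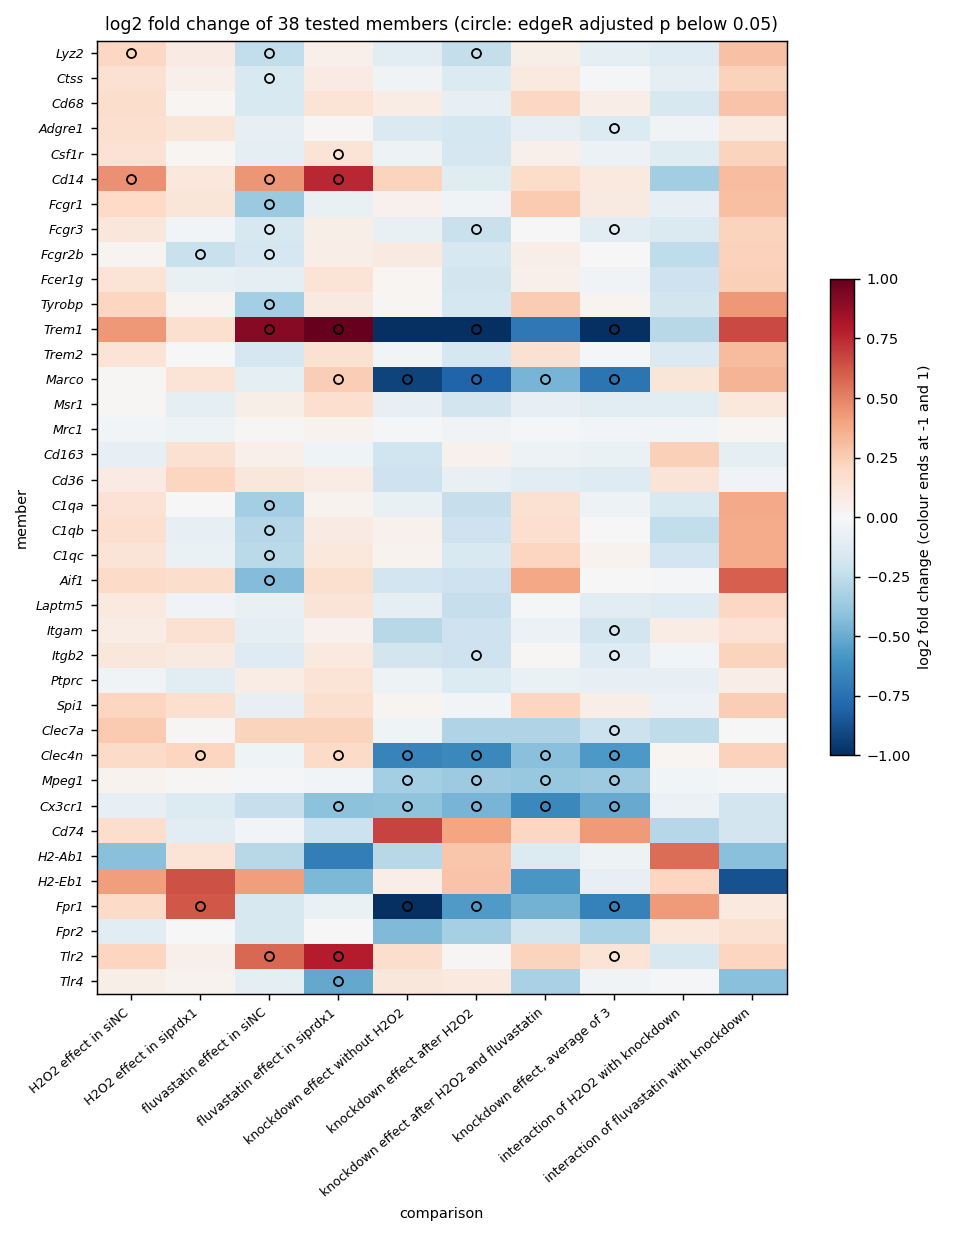
Log2 fold change of the 38 tested members (rows) in the 10 comparisons (columns), with colour ending at -1 and 1 and a circle where edgeR's adjusted p was below 0.05. Marco, Clec4n, Mpeg1 and Cx3cr1 carry a circle in each knockdown column, and both interaction columns have none.

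The siNC+H2O2 and siprdx1+H2O2 libraries are the reference here, and they also enter the H2O2 and knockdown comparisons above, which therefore share them. Fluvastatin after H2O2 moved members in both directions in the siNC arm, though a smaller share of members rose than of all tested genes. Of the sensors of bacterial products, Cd14 and Tlr2 rose while Tlr4 and Fpr1 did not pass. Trem1 rose too, and lysozyme, complement C1q and Fc receptor genes fell. Of 38 members 3 rose and 10 fell, where 13.5% of tested genes rose and 11.3% fell. Members had a median log2 fold change of -0.10, all genes one of -0.01. Without overlap, 4 members were higher (19.9% of tested genes) and 14 lower (19%). With library totals alone in place of TMM factors, the fit moved the median gene by -0.10 in both fluvastatin comparisons. It gave 3 rises and 19 falls of members here, where 1474 of the 16432 tested genes rose and 3835 fell.

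Cd14 rose from 58.5, 57.5 and 55.2 CPM to 78.7, 74.5 and 79.3 (log2 fold change 0.44 ± 0.06 SE, adjusted p = 5.26e-06). Tlr2, the receptor of bacterial lipoproteins (chr3:83836272-83841767, minus strand), rose from 39.6, 38.95 and 36.3 to 58.9, 58.8 and 53.5, 149% of the earlier mean (log2 fold change 0.58 ± 0.07 SE, adjusted p = 8.57e-07). Trem1 rose from 1.29, 1.00 and 1.04 to 2.02, 2.41 and 1.84 (log2 fold change 0.91 ± 0.29 SE, adjusted p = 0.0215). All 3 genes were higher in every fluvastatin library than in every siNC+H2O2 library. The Trem1 call was lost without siNC+H2O2 replicate 2 (adjusted p = 0.0646) or 3 (0.0805) or siNC+H2O2+FV replicate 2 (0.0943).

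Transcripts of the 3 chains of C1q, which together form the molecule that binds immune complexes, fell together. Their genes lie side by side on chr4 between 136880129 and 136898803, all on the minus strand. C1qa went from 367, 371 and 357 CPM to 254, 315 and 298 (log2 fold change -0.34 ± 0.07 SE, adjusted p = 0.00128). C1qb went from 248, 244 and 252 to 191, 199.9 and 218 (log2 fold change -0.29 ± 0.06 SE, adjusted p = 0.00172), and C1qc from 337, 341 and 343 to 256, 295 and 296 (log2 fold change -0.27 ± 0.07 SE, adjusted p = 0.0063). None of the 3 overlapped between the groups, and their means fell to 79.1%, 81.9% and 83.0% of the earlier level. The C1qc call was lost without siNC+H2O2+FV replicate 1 (adjusted p = 0.0589).

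In the other groups C1qa stood at 316, 358 and 316 CPM in siNC, 291, 326 and 321 in siprdx1, 284, 334 and 318 in siprdx1+H2O2 and 319, 334 and 309 in siprdx1+H2O2+FV. C1qb stood at 237, 205 and 220.2 in siNC and 221, 239 and 222 in siprdx1. C1qc stood at 314, 314 and 308 in siNC, 303, 353 and 304 in siprdx1, 275, 335 and 305 in siprdx1+H2O2 and 338, 334 and 313 in siprdx1+H2O2+FV. In the siprdx1 arm the groups with and without fluvastatin overlapped for all 3 chains.

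Transcripts of receptors for IgG and of the adaptor Tyrobp also fell. Fcgr1, the high-affinity receptor, went from 20.6, 19.2 and 20.5 CPM to 16.9, 14.4 and 15.5 (log2 fold change -0.37 ± 0.10 SE, adjusted p = 0.00567). Tyrobp, the adaptor DAP12 that signals for Trem and other receptors, went from 169, 153 and 178 to 121, 126 and 148 (log2 fold change -0.34 ± 0.08 SE, adjusted p = 0.00248). Fcgr3 went from 176, 162 and 169 to 147, 155 and 151 (log2 fold change -0.16 ± 0.05 SE, adjusted p = 0.0241) and Fcgr2b from 92.9, 96.8 and 94.4 to 85.2, 83.2 and 84.8 (log2 fold change -0.17 ± 0.06 SE, adjusted p = 0.0301). The 4 genes did not overlap between the groups, and Fcgr1 and Tyrobp passed without each library in turn. Fcgr2b lost its call without each of the 6 libraries, with adjusted p from 0.0589 to 0.111. Fcgr3 lost it without siNC+H2O2 replicate 1 (0.132) or 3 (0.0679) or siNC+H2O2+FV replicate 1 (0.101) or 3 (0.0573). With no low-count filter neither passed (0.105 for Fcgr2b and 0.0845 for Fcgr3).

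The remaining falls were of Lyz2, Ctss and Aif1. Lyz2 fell to 84.3% of the siNC+H2O2 mean (log2 fold change -0.25 ± 0.05 SE, adjusted p = 0.00139). Ctss, a protease that processes antigens, went from 712, 676 and 673 CPM to 599, 642 and 618 (log2 fold change -0.15 ± 0.05 SE, adjusted p = 0.0247). Aif1, the calcium-binding protein Iba1 of macrophages and microglia, went from 12.03, 11.1 and 10.5 to 8.86, 6.94 and 9.04 (log2 fold change -0.43 ± 0.13 SE, adjusted p = 0.0133). All 3 were lower in every fluvastatin library. Ctss lost its call without siNC+H2O2 replicate 1 (adjusted p = 0.135) or siNC+H2O2+FV replicate 1 (0.125) or 3 (0.0642) or with no low-count filter (0.059), and Aif1 without siNC+H2O2 replicate 1 (0.067) or siNC+H2O2+FV replicate 2 (0.105). Without siNC+H2O2 replicate 1 the count of falls was 6.

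The same genes were read in the groups outside that comparison. Fcgr1 stood at 20.7, 15.5 and 16.4 CPM in siNC, 16.9, 18.2 and 19.1 in siprdx1, 19.9, 19.8 and 19.2 in siprdx1+H2O2 and 19.3, 18.4 and 18.2 in siprdx1+H2O2+FV. Tyrobp stood at 154, 128 and 148 in siNC, 148, 146 and 139 in siprdx1, 140.3, 158 and 144 in siprdx1+H2O2 and 161, 164 and 146 in siprdx1+H2O2+FV. Neither gene passed with H2O2 or fluvastatin in the siprdx1 arm. Fcgr2b stood at 92.4, 95.8 and 90.03 in siNC and 90.6, 85.99 and 88.5 in siprdx1+H2O2+FV. Ctss stood at 617, 640.3 and 595 in siNC, 610.3, 592 and 608 in siprdx1, 656, 604 and 618 in siprdx1+H2O2 and 682, 643 and 665 in siprdx1+H2O2+FV. Ctss and Aif1 did not pass in those 2 comparisons either. Aif1 stood at 10.04, 9.52 and 9.74 in siNC, 7.96, 8.17 and 9.69 in siprdx1, 8.33, 9.26 and 11.3 in siprdx1+H2O2 and 11.8, 10.8 and 9.83 in siprdx1+H2O2+FV. Tlr2 stood at 33.3, 32.98 and 32.7 in siNC and 40.8, 34.7 and 36.3 in siprdx1, below all fluvastatin libraries.

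In the siprdx1 arm fluvastatin raised 6 members and lowered 2, where 12.6% of tested genes rose and 11% fell. Medians were 0.08 for members and -0.01 for all genes on the log2 scale. Without overlap, 7 members were higher (17.7% of tested genes) and 2 lower (17.7%). Cd14 rose from 49.5, 52.1 and 55.2 CPM to 88.1, 86.5 and 89.9, 169% of the earlier mean (log2 fold change 0.75 ± 0.06 SE, adjusted p = 9.01e-10), and Tlr2 from 41.4, 37.6 and 36.8 to 69.2, 63.5 and 66.8, 172% (log2 fold change 0.79 ± 0.07 SE, adjusted p = 4.03e-09). Trem1 rose from 0.299, 0.582 and 0.367 to 1.49, 1.01 and 1.31, on few counts (log2 fold change 1.58 ± 0.34 SE, adjusted p = 0.00135). These 3 genes rose in both arms and were called without each library in turn here.

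Smaller rises were seen in Marco, Clec4n and Csf1r. Marco rose from 307, 339 and 332 CPM to 405, 383 and 371 (log2 fold change 0.25 ± 0.06 SE, adjusted p = 0.00455), Clec4n from 67.03, 59.8 and 62.9 to 70.95, 68.3 and 77.04 (log2 fold change 0.19 ± 0.06 SE, adjusted p = 0.0299) and Csf1r from 216, 236 and 227 to 251, 255 and 239 (log2 fold change 0.14 ± 0.05 SE, adjusted p = 0.0448). Groups did not overlap in the 3 genes. Scaled by library size alone, none of these 3 passed (adjusted p = 0.088 for Marco, 0.323 for Clec4n and 0.641 for Csf1r), and the count of rises was 3. Clec4n and Csf1r also lost their calls with no low-count filter (0.0651 and 0.164) and with only the groups compared (0.0768 and 0.111). Clec4n lost its call without siprdx1+H2O2 replicate 2 or 3 or siprdx1+H2O2+FV replicate 1 or 3 (adjusted p up to 0.158), and Csf1r without siprdx1+H2O2 replicate 1 or 3 or siprdx1+H2O2+FV replicate 1 or 2 (up to 0.15).

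The members that fell were Cx3cr1 and Tlr4. Cx3cr1 went from 8.73, 8.72 and 10.02 CPM to 7.03, 6.79 and 6.85 (log2 fold change -0.41 ± 0.11 SE, adjusted p = 0.0057). Tlr4, the endotoxin receptor, went from 51.1, 35.1 and 43.8 to 29.5, 27.4 and 34.5 (log2 fold change -0.51 ± 0.14 SE, adjusted p = 0.0116), while its co-receptor Cd14 rose in the same libraries. Neither overlapped between the groups. The Tlr4 call was lost without siprdx1+H2O2 replicate 1 (adjusted p = 0.0737) or siprdx1+H2O2+FV replicate 2 (0.067), where the count of falls was 1. In siNC, Tlr4 stood at 43.1, 43.4 and 35.3 before and 44.95, 36.4 and 32.6 after fluvastatin, with overlap. Without H2O2 it stood at 35.04, 45.6 and 36.2 in siNC and 44.6, 39.8 and 42.2 in siprdx1, with overlap as well.

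**Figure D5:**
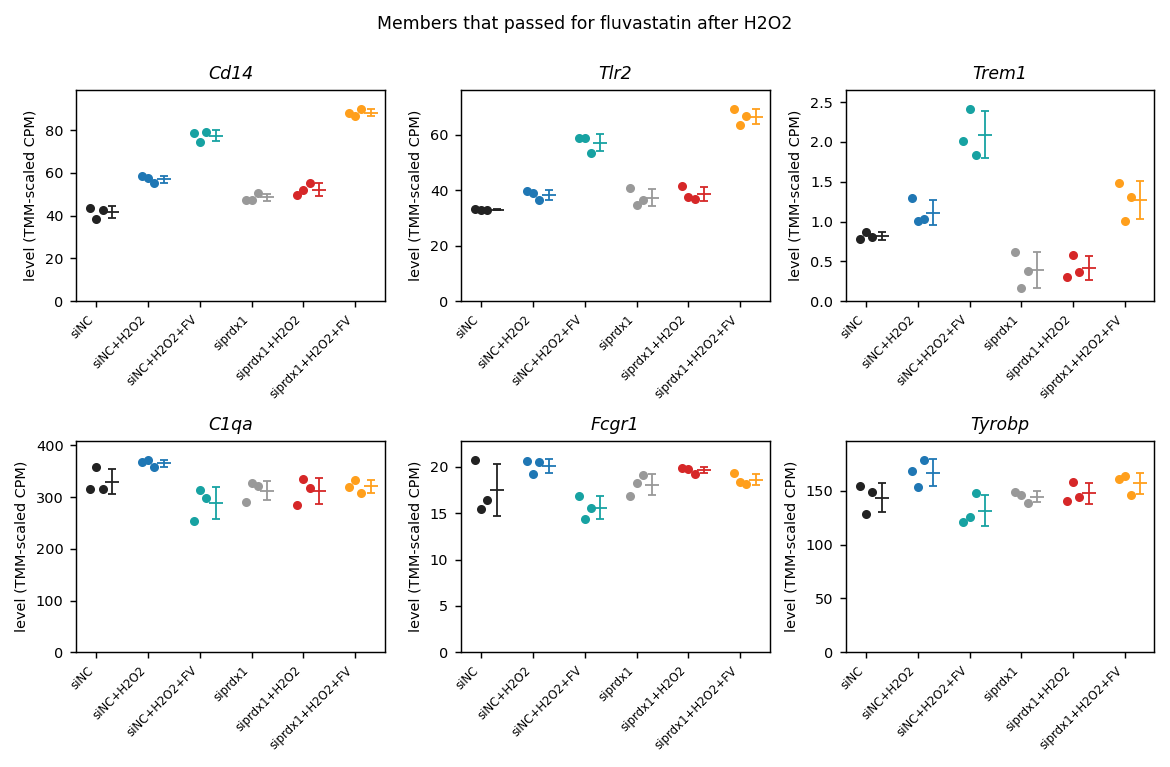
Level in TMM-scaled CPM of Cd14, Tlr2, Trem1, C1qa, Fcgr1 and Tyrobp in each library (dots), with the group mean and SD beside them. Tlr2 lies between 53.5 and 69.2 in the 6 fluvastatin libraries and between 32.7 and 41.4 in the other 12.

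Whether fluvastatin acted differently in the 2 arms was tested as an interaction, and 0 of 38 members passed in either direction, where 0.463% of tested genes were higher and 0.189% lower. At an unadjusted p below 0.05, 20 members were higher in siprdx1 and 0 lower. DESeq2 called 9: Lyz2, Ctss, Csf1r, Cd14, Tyrobp, Marco and the 3 C1q chains. Shares of all tested genes are not given for these counts, so they cannot be set against a background. Over members the median difference was 0.22 and over all genes 0.01. The smallest adjusted p with edgeR was that of C1qb (log2 difference 0.37 ± 0.09 SE, adjusted p = 0.0647), followed by Marco (log2 difference 0.34 ± 0.09 SE, adjusted p = 0.0792), Lyz2 (log2 difference 0.30 ± 0.08 SE, adjusted p = 0.0828) and Tyrobp (log2 difference 0.43 ± 0.11 SE, adjusted p = 0.0861). C1qb went from 199.6, 233 and 213 CPM to 236, 232 and 216 in siprdx1, with overlap, beside the fall in siNC given above. With the GC offset 10 members were called higher, and fold changes of this comparison correlated with transcript GC content at 0.32 across 11737 genes. The count was 2 without siNC+H2O2+FV replicate 3 and 3 without siprdx1+H2O2 replicate 2.

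Of the 38 tested members 14 passed in none of the 10 comparisons. They were Cd68, the adaptor Fcer1g, the lipid-sensing receptor Trem2, the scavenger receptors Msr1, Mrc1, Cd163 and Cd36, the lysosomal membrane protein Laptm5, the phosphatase CD45 (Ptprc), the factor Spi1, the peptide receptor Fpr2 and the class II genes Cd74, H2-Ab1 and H2-Eb1. Mrc1, the mannose receptor, had the narrowest range of the tested members: its largest absolute log2 fold change over the 7 pairwise comparisons was 0.05. Of the other scavenger receptors, Msr1 differed by -0.08, Cd36 by -0.20 and Cd163 by -0.20 on the log2 scale between siprdx1 and siNC without H2O2, and none of these passed. Levels over the 18 libraries ran from 299.5 to 347 CPM for Mrc1, 145 to 211 for Msr1 and 833 to 1387 for Cd36. They ran from 15.95 to 21.01 CPM for Cd163, 106 to 148 for Trem2, 78.3 to 92.9 for Fcer1g and 183 to 232 for Laptm5. Ptprc ran from 51.3 to 69.6 CPM, Spi1 from 36.9 to 56.5 and Fpr2 from 0.597 to 1.46. Cd74 ran from 0.524 to 1.31 CPM, H2-Ab1 from 0.529 to 1.69 and H2-Eb1 from 0.125 to 0.729, where a few reads make up the spread. In 27 of the 38 members every pairwise log2 fold change stayed within 0.5 of 0.

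The other macrophage and myeloid genes were counted in the same way, with the shares of all tested genes as given above for each comparison. With knockdown 1 of 59 rose and 1 fell without H2O2 (median -0.06), where 0.657% of tested genes rose and 1.67% fell. After H2O2 0 rose and 9 fell (median -0.16), where 0.901% rose and 1.83% fell, and after fluvastatin none passed (0.04), where 1.62% and 2.35% did. On average 1 rose and 13 fell (-0.05), against 3.93% and 5.46% of tested genes. With fluvastatin 4 rose and 15 fell in siNC (-0.11), against 13.5% and 11.3%, and 10 rose and 2 fell in siprdx1 (0.07), against 12.6% and 11%. With H2O2 4 rose and 1 fell in siNC (0.12), against 2.36% and 4.59%, and 1 rose and 4 fell in siprdx1 (0.01), against 2.48% and 5.39%. For the interaction of H2O2 with knockdown 0 of 59 were higher and 1 lower, against 0.0426% and 0.201% of tested genes. For that of fluvastatin 2 were higher and 0 lower, against 0.463% and 0.189%. The gene that was lower for H2O2 was Lilrb4a, an inhibitory receptor of myeloid cells. It stood at 65.7, 75.8 and 66.9 CPM in siNC, 59.8, 65.3 and 59.2 in siNC+H2O2, 80.4, 62.04 and 67.5 in siprdx1 and 37.1, 28.2 and 31.7 in siprdx1+H2O2. Its interaction with knockdown passed for H2O2 (log2 difference -0.94 ± 0.15 SE, adjusted p = 0.00278) and for fluvastatin (log2 difference 0.72 ± 0.15 SE, adjusted p = 0.0211). Both tests use the siNC+H2O2 and siprdx1+H2O2 libraries, with opposite sign, so they are not separate results.

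Genes of the partners of the members were counted too. With fluvastatin 13.5% of tested genes rose and 11.3% fell in siNC, and 12.6% rose and 11% fell in siprdx1, and the lists that follow are small beside such shares. Of 17 Toll-like receptor partners and signalling genes, 2 rose and 2 fell in siNC, and 4 rose and 3 fell in siprdx1. Irak2, a kinase below these receptors, rose in siNC (log2 fold change 0.99 ± 0.06 SE, adjusted p = 2.14e-11) and in siprdx1 (log2 fold change 1.19 ± 0.06 SE, adjusted p = 7.92e-13). Ly96, the partner of Tlr4 at the surface, rose in siprdx1 (log2 fold change 0.65 ± 0.13 SE, adjusted p = 0.000562). Of 13 tested genes of ITAM and Fc receptor signalling, 1 rose and 2 fell in siNC and 1 rose and 1 fell in siprdx1. Of 8 tested class II loading genes, 2 fell in each arm and 0 rose. Of 16 tested resident macrophage genes, 1 rose and 4 fell in siNC and 1 rose and 2 fell in siprdx1. With knockdown 0 of those 16 rose and 1 fell without H2O2, against 0.657% and 1.67% of tested genes. After H2O2 0 changed, where 0.901% rose and 1.83% fell. After fluvastatin 1 rose and 0 fell (1.62% and 2.35%), and on average 1 rose and 2 fell (3.93% and 5.46%).

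Summed levels of the gene lists of other cell types moved with some groups as well, and some of these sums rest on few genes. Fibroblast genes (12 listed) summed to 18700 to 19800 CPM in siNC and 15700 to 16600 in siprdx1, to 19700 to 20500 and 18000 to 19400 after H2O2, and to 19100 to 19900 and 16500 to 17200 after fluvastatin. Endothelial genes (9 listed) summed to 97 to 105 CPM in siNC and 77.8 to 89.1 in siprdx1, to 101 to 102 and 87.4 to 101 after H2O2, and to 97.7 to 99.3 and 82.8 to 84.6 after fluvastatin. Natural killer and mast cell genes summed to 117 to 123 CPM in siNC and 131 to 139 in siprdx1, to 115 to 121 and 130 to 137 after H2O2, and to 112 to 117 and 110 to 114 after fluvastatin. This sum is almost all Kit, a receptor found on other cells too, and 9 of the 10 genes averaged below 1 CPM. Neutrophil genes (10 listed) summed to 10.6 to 13.4 CPM in siNC+H2O2 and 8.68 to 8.83 in siprdx1+H2O2, with S100a9 and Retnlg at 0. Their sums were 10.3 to 11.6 in siNC and 7.96 to 8.93 in siprdx1, and 10.1 to 12.6 and 8.9 to 10.3 after fluvastatin. Of these 10 genes 8 averaged below 1 CPM. Dendritic cell genes (8 listed) summed to 15.5 to 15.9 CPM in siNC+H2O2 and 12.1 to 13.8 in siNC+H2O2+FV, with Flt3 and Cd209a at 0. In siprdx1+H2O2 and siprdx1+H2O2+FV they summed to 15.1 to 17.8 and 13.3 to 13.8 CPM, and 7 of the 8 genes averaged below 1 CPM. Leydig and steroid genes (12 listed) summed to 1390 to 1410 CPM in siNC+H2O2 and 1780 to 1810 in siNC+H2O2+FV. Star stood at 485 to 530 CPM in the latter group. In siprdx1+H2O2 and siprdx1+H2O2+FV the Leydig and steroid genes summed to 1220 to 1280 and 1650 to 1680 CPM. The part of these other cells in the members' differences was not tested.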

How the data were processed

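RNA-seq of 18 libraries of cultured mouse Leydig cells was deposited as 1 table of whole-number counts per gene. Per the submitters' processing notes the authors used HISAT2, HTSeq and mm10. The gene annotation and the strand setting are not given in the sources used here, although the kit marks strand. Of the 55487 gene IDs, 55141 were found in GENCODE M21, from which exon lengths were taken. Every sample column was mapped to a label, and 0 columns were left unmapped.

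Genes with low counts were removed with edgeR's filterByExpr. The 16432 others were fitted with edgeR 4.0.16 in R 4.3.3 (TMM scaling, robust quasi-likelihood test, 6 group means, 12 residual degrees of freedom). In all 10 contrasts were tested, each with Benjamini-Hochberg adjustment over all tested genes and a threshold of 0.05. The biological coefficient of variation was 7.01%. Replicates of a group were not the same library: chi-square over its degrees of freedom ran from 2.64 to 15.8. The scripts were tested on simulated data. CPM were scaled by TMM.

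Values of every library are given for Lyz2, Cd68, Csf1r and Adgre1 and for members with a mean of at least 1 CPM that passed in at least 1 contrast with groups that did not overlap, and other members are given by ranges. The rule for the members reads no measured value, but the members and lists were chosen with earlier results of these data known.

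Alternatives were DESeq2 1.42.0, its scaling in edgeR, library size alone, no low-count filter, the replicate number as a block, only the groups compared, and each library left out. A GC offset was added after the data were seen. Deviations of libraries from their group mean were correlated with transcript GC content. The values ran from -0.67 in siprdx1+H2O2 replicate 1 to 0.68 in replicate 2 of that group. For fold changes they ran from -0.19 for fluvastatin in siNC to 0.32 for the fluvastatin interaction. Shares of all tested genes are not given at an unadjusted p, with DESeq2 or with the GC offset. Counts of members at those settings therefore have no background beside them. Same-numbered libraries correlated in their deviations at 0.135, 0.135 and 0.118 between siNC and siNC+H2O2. No other comparison had all 3 above 0.1, though replicate 2 reached 0.256 for H2O2 in siprdx1. Libraries of unlike number were not compared, so these values do not show that libraries were paired. Near-identical transcripts were sought with blastn 2.17.0+, and promoters and sequences came from RefSeq on GRCm38.p6.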

Additional observations from a re-analysis of the deposited data

How the results depend on the processing

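Of 56 called member results 32 held under every alternative, 800 of 916 alternatives kept the call and 0 reversed. Omission of 1 library kept 392 of 480. The counts of members changed as follows, and the cause was not tested. For H2O2 in siNC the 2 rises became 5 with the replicate block or DESeq2, 12 with the GC offset and 13 with both GC offset and replicate block. For H2O2 in siprdx1 the 2 rises became 1 with library size alone, 4 with GC offset and block and 0 with only the groups compared, and the 1 fall became 2 and 0 in the last 2 settings. For fluvastatin in siNC the 10 falls became 19 with library size alone, and in siprdx1 the 6 rises became 3 with library size alone and 10 with GC offset and block. With library size alone 3835 of the 16432 tested genes fell in siNC and 1463 rose in siprdx1. For knockdown without H2O2 the 0 rises became 1 with library size alone, the block, the GC offset, both, or DESeq2, and the 5 falls became 9 with the GC offset and 11 with both. After H2O2 the 9 falls became 18, 20 with both, and 3 with only the groups compared. After fluvastatin the 0 rises became 1 with library size alone, 3 without the filter or with DESeq2, 2 with the block and 6 with the GC offset or both. For the average the 1 rise became 2 with library size alone, the GC offset or both. For the H2O2 interaction the 0 higher became 1 with the GC offset or both, and the 0 lower became 3, 5 with both and 1 with DESeq2. For the fluvastatin interaction the 0 higher became 6 without the filter, 4 with the block, 10 with the GC offset, 12 with both and 9 with DESeq2, and the 0 lower became 1 without the filter or with both. The GC offset was chosen after seeing the data. With each library left out in turn, the counts of higher and lower members ranged from 1 to 3 and 0 to 0 for H2O2 in siNC, 0 to 2 and 0 to 1 in siprdx1, 2 to 3 and 6 to 10 for fluvastatin in siNC, and 4 to 8 and 1 to 2 in siprdx1. For knockdown they ranged from 0 to 0 and 4 to 5 without H2O2, 0 to 0 and 3 to 10 after H2O2, 0 to 1 and 4 to 4 after fluvastatin, and 0 to 1 and 9 to 14 on average. For the interactions they ranged from 0 to 0 and 0 to 0 with H2O2 and 0 to 3 and 0 to 0 with fluvastatin. The labels do not say that a number pairs libraries, so the block rests on a shared number in every comparison. Depth limits Trem1, Fpr2 and the class II genes, which had under 50 counts a library.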

Other observations

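Genes of activated macrophages, some of which stromal cells also express, were listed beside the members, and 14 of the 20 were tested. With H2O2 4 rose and 0 fell in siNC (2.36% and 4.59% of all tested genes), and 2 rose and 0 fell in siprdx1 (2.48% and 5.39%). With fluvastatin 7 rose and 2 fell in siNC (13.5% and 11.3%) and 7 rose and 0 fell in siprdx1 (12.6% and 11%). With knockdown 0 rose and 2 fell without H2O2 (0.657% and 1.67%), 0 rose and 4 fell after H2O2 (0.901% and 1.83%, median -0.25 on the log2 scale), and 3 rose and 1 fell after fluvastatin (1.62% and 2.35%). Tnf, a central inflammatory cytokine, stood at 11.9, 10.8 and 10.8 CPM in siNC, 21.1, 20.7 and 18.8 in siNC+H2O2 and 20.6, 20.97 and 23.3 in siNC+H2O2+FV. It stood at 11.6, 12.7 and 12.1 in siprdx1, 18.5, 21.7 and 20 in siprdx1+H2O2 and 33.4, 34.4 and 32.5 in siprdx1+H2O2+FV. Tnf rose with H2O2 in both arms and with fluvastatin in siprdx1, and the fluvastatin interaction passed (log2 difference 0.64 ± 0.11 SE, adjusted p = 0.00421). Cxcl2, an attractant of neutrophils, stood at 10.5, 11.1 and 11.04 CPM in siNC+H2O2 and 18.2, 16.6 and 15.3 with fluvastatin, against 5.84, 5.86 and 6.48 and 24.8, 23.3 and 26.1 in the siprdx1 arm (interaction log2 difference 1.41 ± 0.13 SE, adjusted p = 6.87e-07). Ccl3, a chemokine of macrophages, stood at 28.9, 28.7 and 27.3 in siNC, 44.9, 49.4 and 43.1 in siNC+H2O2 and 26, 30.1 and 28.9 in siNC+H2O2+FV, and between 26.3 and 31.2 in every siprdx1-arm library. Both interactions passed, with H2O2 (log2 difference -0.57 ± 0.10 SE, adjusted p = 0.00653) and with fluvastatin (log2 difference 0.56 ± 0.10 SE, adjusted p = 0.00557). Both use the siNC+H2O2 and siprdx1+H2O2 libraries, with opposite sign, so they are not separate results. Arg1, the arginine-cleaving enzyme of alternatively activated macrophages, was lower in siprdx1 without H2O2 (log2 fold change -0.81 ± 0.12 SE, adjusted p = 0.000372), after H2O2 (log2 fold change -0.54 ± 0.12 SE, adjusted p = 0.0123) and after fluvastatin (log2 fold change -0.59 ± 0.13 SE, adjusted p = 0.00686).

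Growth and attracting factors for macrophages were read as well. Csf1, a ligand of Csf1r, stood at 852, 838 and 844 CPM in siNC+H2O2 and 1323, 1399 and 1385 with fluvastatin (log2 fold change 0.70 ± 0.05 SE, adjusted p = 3.33e-11), and at 781, 845 and 801 and 1383, 1400 and 1344 in the siprdx1 arm (log2 fold change 0.77 ± 0.05 SE, adjusted p = 4.9e-12). The other ligand, Il34, stayed between 3.49 and 6.41 CPM. Ccl2, the attractant of monocytes, rose from 164, 169.7 and 192 to 254, 249 and 296 in siNC (log2 fold change 0.60 ± 0.08 SE, adjusted p = 3.03e-06) and from 166, 182 and 180.1 to 414, 404 and 373 in siprdx1 (log2 fold change 1.18 ± 0.08 SE, adjusted p = 4.49e-11). Ptgs2, the inducible cyclooxygenase, rose further, from 4.89, 6.61 and 4.01 CPM to 74.9, 67.5 and 61.7 in siNC (log2 fold change 3.73 ± 0.15 SE, adjusted p = 2.65e-14).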
